A study of Mus musculus with 69 samples.

Results

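Eea1 and 7 further genes of the early endosome, Rab5a, Rab5b, Rab5c, Appl1, Rabep1, Rbsn and Vps45, were followed in RNA from the ventral striatum of 69 mice. The 8 genes were found by name among the 42279 genes of the count table, with Rbsn under its older symbol Zfyve20, and all 8 passed the filter on low counts. Eea1 was chosen by its level in the lines of these same mice, so its own values by line are given as a description with no test. The other 7 were chosen for their roles beside it.

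There were 35 HDID1 mice, 17 females and 18 males, from a line selected over generations for the blood ethanol that mice reach when they drink in the dark. The other 34 mice, 17 of each sex, were HSNpt, the heterogeneous stock that serves as the control. Per the labels' protocols the animals had taken a drinking test of 4 days with 20% ethanol from 3 h into the dark, in sessions of 2 h and a last one of 4 h, and the brains were taken 3 weeks later, so no group is free of ethanol. HDID1 is a single selected line and HSNpt a single stock, and selection and any other difference between these populations cannot be told apart here.

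Vesicles that have pinched off from the plasma membrane fuse with the early endosome, where cargo is sorted for recycling or for breakdown. The small GTPase Rab5 sits on these membranes and recruits effector proteins, among them the long coiled-coil tether EEA1, which also binds the lipid phosphatidylinositol 3-phosphate through a FYVE domain at its C-terminal end. In neurons this compartment handles receptors taken up from the surface, including those at synapses.

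Eea1 lies on chromosome 10 of the mm10 build at 95940663 to 96045518 on the plus strand and has 29 exons of 7836 bases in all. Its last exon, chr10:96042082-96045518, holds 3437 of these bases, of which 123 are coding and 3314 are 3′ untranslated. This exon took 11285 of the 28647 Eea1 reads in all mice, and the pattern described below was clearest in it. The coding part is shown because it separates the end of the FYVE-domain reading frame from the untranslated stretch, with the stop codon in capitals (chr10:96042082-96042204, plus strand, sequence from GENCODE M21 on GRCm38).
Eea1 last exon, coding part: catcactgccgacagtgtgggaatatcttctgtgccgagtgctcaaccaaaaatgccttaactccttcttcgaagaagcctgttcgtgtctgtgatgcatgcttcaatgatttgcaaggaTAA

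The 3 Rab5 genes are paralogues, and how far their reads can be told apart depends on how alike they are. The stretch of 90 bases in which they are most alike covers codons 148 to 177 and lies in exon 5 of 6 in the annotated transcript used for each gene (chr17:53500379-53500468 plus strand, chr10:128681387-128681476 minus strand and chr11:100716759-100716848 minus strand). Bases of Rab5b and Rab5c that differ from Rab5a are in capitals, 14 in Rab5b and 15 in Rab5c, and 69 of the 90 bases are the same in all 3.
Rab5a: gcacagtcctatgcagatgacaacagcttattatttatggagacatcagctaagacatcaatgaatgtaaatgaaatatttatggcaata
Rab5b: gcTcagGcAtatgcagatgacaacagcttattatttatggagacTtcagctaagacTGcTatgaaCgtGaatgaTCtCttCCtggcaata
Rab5c: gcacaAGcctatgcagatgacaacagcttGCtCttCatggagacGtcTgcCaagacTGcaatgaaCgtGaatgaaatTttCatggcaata
Over the whole coding sequence Rab5a was 74.07% identical to Rab5b and 74.34% to Rab5c, and Rab5b was 77.28% identical to Rab5c. The longest run shared by any pair was 35 bases, between Rab5a and Rab5b.

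Library totals ran from 14077983 to 35257422 counts with a median of 17646316, and levels are given as CPM, a gene's counts relative to the TMM-scaled size of its library. Markers of medium spiny neurons, the main cell of this tissue, were high in most libraries (summed level 839 to 11281 CPM with a median of 7512 in HDID1, 2500 to 14409 with a median of 9310 in HSNpt), and 6 of 14 fell in HDID1 by the line test described below. Of 8 hypothalamic markers 4 rose, with a summed level of 5.98 to 1705 CPM in HDID1 and 3.68 to 468 CPM in HSNpt. Endothelial and mural markers fell in 4 of 8 cases and microglial ones in 1 of 8, 1 astrocyte marker rose and 1 fell, and no oligodendrocyte, choroid plexus or cortex marker was called. Over all genes in the same test 5.98% rose and 5.73% fell, so the lists with 1 call in a direction cannot be told from that share. Makeup, judged by the medium spiny neuron and hypothalamic markers alone and not by the other lists, set 5 libraries apart. A further 9, of which 7 were HDID1, stood apart in the last-exon index, which is the median over 9626 genes of the log2 ratio of last-exon reads to reads in the other exons, relative to that gene's median library. In bulk tissue fewer cells of a type and less RNA per cell cannot be told apart.

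Eea1 was low in every HDID1 mouse and spread widely in HSNpt. The level in HDID1 was 5.74 CPM in the lowest mouse, 15.9 in the median and 20.95 in the highest. In HSNpt the lowest mouse had 8.92 CPM, the median was 24.2 and the highest 77.6. The ranges overlapped at the low end: 16 HSNpt mice, 9 females and 7 males, lay at 8.92 to 19.2 CPM, inside the HDID1 range, and the other 18, 8 females and 10 males, lay above every HDID1 mouse. No mouse of HDID1 reached the HSNpt median. Means were 14.6 ± 4.25 CPM in HDID1 (SD, n = 35) and 31.2 ± 20.5 CPM in HSNpt (SD, n = 34), so the coefficient of variation was 29.2% in HDID1 and 65.5% in HSNpt.

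The spread in HSNpt was present in both sexes. HSNpt females ran from 8.92 through a median of 17.5 to 77.6 CPM, and HSNpt males from 13.1 through 25.0 to 74.0 CPM. HDID1 females ran from 5.74 through 12.8 to 18.7 CPM, and HDID1 males from 7.55 through 16.4 to 20.95 CPM. In each sex some HSNpt mice therefore lay within the HDID1 range of that sex and others far above it. The highest HSNpt mouse had 8.69 times the level of the lowest, against 3.65 times in HDID1. Among the 18 upper HSNpt mice, 14 lay at 23.5 to 53.4 CPM and 4, which were 2 females and 2 males, at 68.2 to 77.6 CPM.

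**Figure D1:**
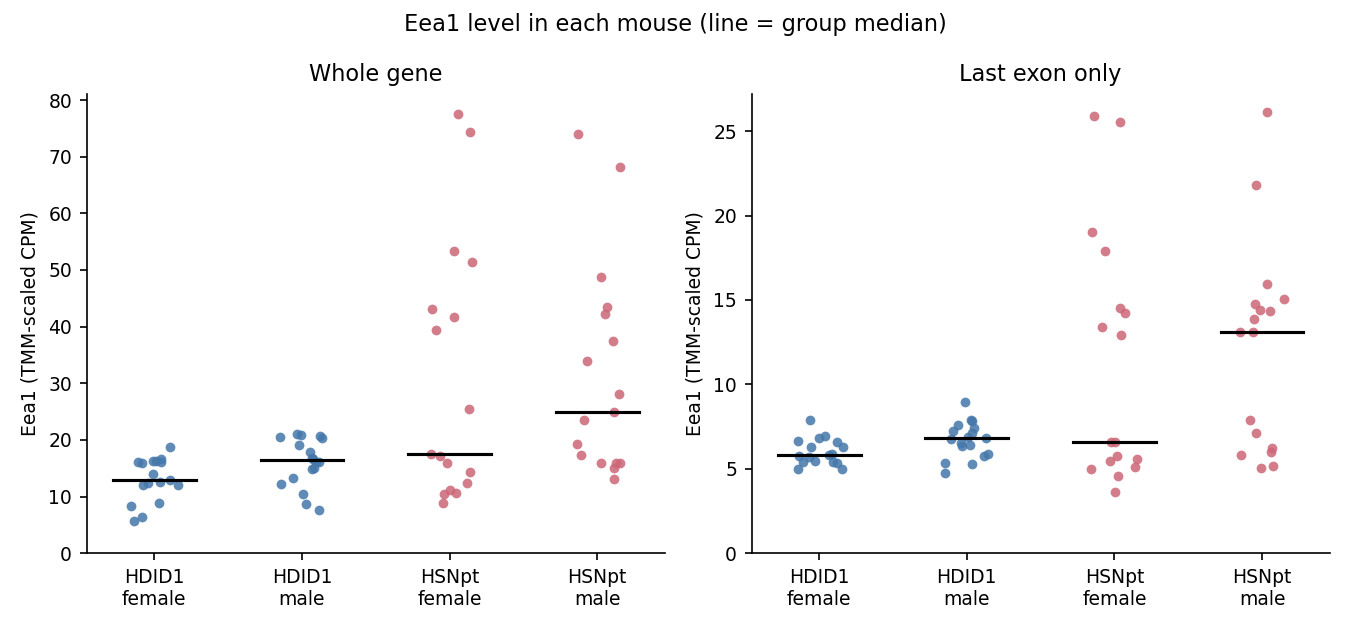
Eea1 level in each mouse, in TMM-scaled CPM, for the whole gene (left) and the last exon (right), by line and sex; points are mice and black lines group medians. HDID1 mice end at 20.95 CPM for the whole gene and 8.93 CPM in the last exon, and 17 HSNpt mice lie above both, with 1 further HSNpt mouse above each measure alone.

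In the last exon alone the HSNpt mice fell into separate sets. HDID1 mice lay between 4.76 and 8.93 CPM with a median of 6.35 (mean 6.37 ± 0.984, SD, n = 35), and no step between neighbouring HDID1 mice was wider than 0.18 on the log2 scale. In HSNpt, 16 mice lay at 3.65 to 7.89 CPM and 18 at 12.9 to 26.1 CPM, with no mouse between 7.89 and 12.9 CPM. That gap was 0.71 on the log2 scale, a 1.63-fold step, and the next widest step among HSNpt mice was 0.33. Below the gap were 9 females and 7 males, and above it 8 females and 10 males. At the top, 4 mice lay at 21.8 to 26.1 CPM, while the others above the gap ended at 19.01 CPM. The highest HDID1 mouse, at 8.93 CPM, lay inside this interval and below every HSNpt mouse of the upper set.

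Scaling and library choice did not move mice across it. With DESeq2 size factors the gap was 0.70 and with total counts 0.64 on the log2 scale, and the same mice lay on either side. Without the 9 libraries whose last-exon index stands apart, the gap was 0.71 with 15 HSNpt mice below and 17 above, and without the 5 that makeup sets apart it was 0.71 with 16 and 17. For the whole gene no such gap was seen: the widest step among HSNpt mice was 0.35 and among HDID1 mice 0.25. The 18 upper mice were not the same by both measures, and 17 were shared. HSNpt male 10 had 23.5 CPM over the whole gene, above every HDID1 mouse, but 7.89 CPM in the last exon, below the gap. HSNpt male 8, a library whose last-exon index stands apart, had 15.96 CPM over the whole gene, inside the HDID1 range, but 14.3 CPM in the last exon, above the gap.

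**Figure D2:**
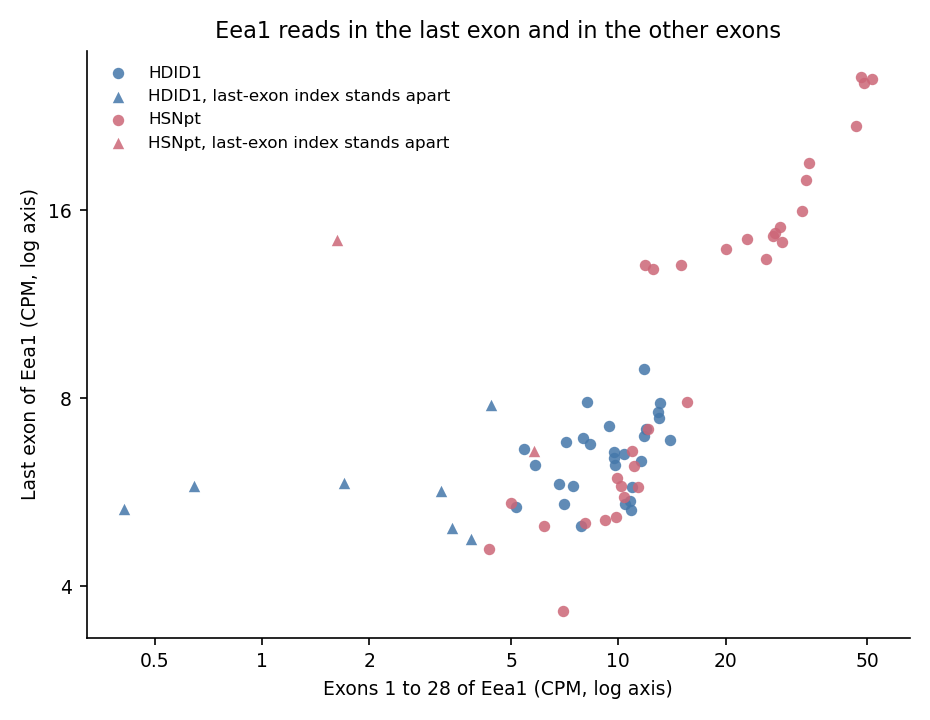
Last-exon level of Eea1 against the level summed over exons 1 to 28, both in CPM on log axes; each point is a mouse, and triangles mark libraries whose last-exon index stands apart. Last-exon levels of HSNpt mice leave a gap between 7.89 and 12.9 CPM, and the HDID1 triangles extend left, with the lowest of them at 4.76 CPM in the last exon, where the other HDID1 mice start at 5.01 CPM.

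Exons 1 to 28 were also higher in HSNpt on average. Among HDID1 mice their level moved with a property of the library, a relation that was not computed for these exons in HSNpt. Summed over these exons, HDID1 ran from 0.410 CPM through a median of 8.35 to 13.9, and HSNpt from 1.62 through 12.3 to 51.7. The ranges overlapped, with 16 HSNpt mice above the highest HDID1 mouse. The share of Eea1 reads in the last exon was 32.8 to 92.9% in HDID1, with a median of 43.4%, and 32.03 to 89.8% in HSNpt, with a median of 35.7%. Without the 9 libraries that stand apart, exons 1 to 28 in HDID1 ran from 5.17 through 9.76 to 13.9 CPM, and the last-exon share ended at 54.9% in HDID1 and 52.4% in HSNpt.

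The Eea1 reads in exons 1 to 28 moved closely with the last-exon index among HDID1 mice (Pearson's r = -0.947, Spearman's rho = -0.855, each with a permutation p of 1e-05, the smallest that 100000 permutations can give, and 2e-05 after adjustment over 2 relations; r = -0.927 without the 2 mice farthest from the median). For the last exon the relation in the same 35 mice was weak (r = -0.195, permutation p = 0.225; rho = -0.186, p = 0.237; r = -0.195 without the 2 farthest mice). HSNpt male 8 had 1.62 CPM in exons 1 to 28 and 14.3 CPM in the last exon, a share of 89.8%, in a library with an index of 1.76. The index leaves out the 8 genes described here.

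Along the gene, every exon was higher in HSNpt. The ratio of the HSNpt mean to the HDID1 mean ran over exons 1 to 28 from 1.99 in exon 25 to 3.16 in exon 6, with a median of 2.51, and was 1.84 in the last exon. It was 2.38 for exons 1 to 28 together and 2.14 for the whole gene. Within HSNpt each of these 28 exons followed the rest of the gene from mouse to mouse, with rho between 0.810 and 0.932 over 34 mice, and the last exon with rho = 0.880. Within HDID1 the values were 0.228 in exon 2, which had 104 reads in all mice, to 0.829 in exon 12, and 0.502 in the last exon. These correlations describe exons of the same libraries, which share depth and the last-exon index.

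**Figure D3:**
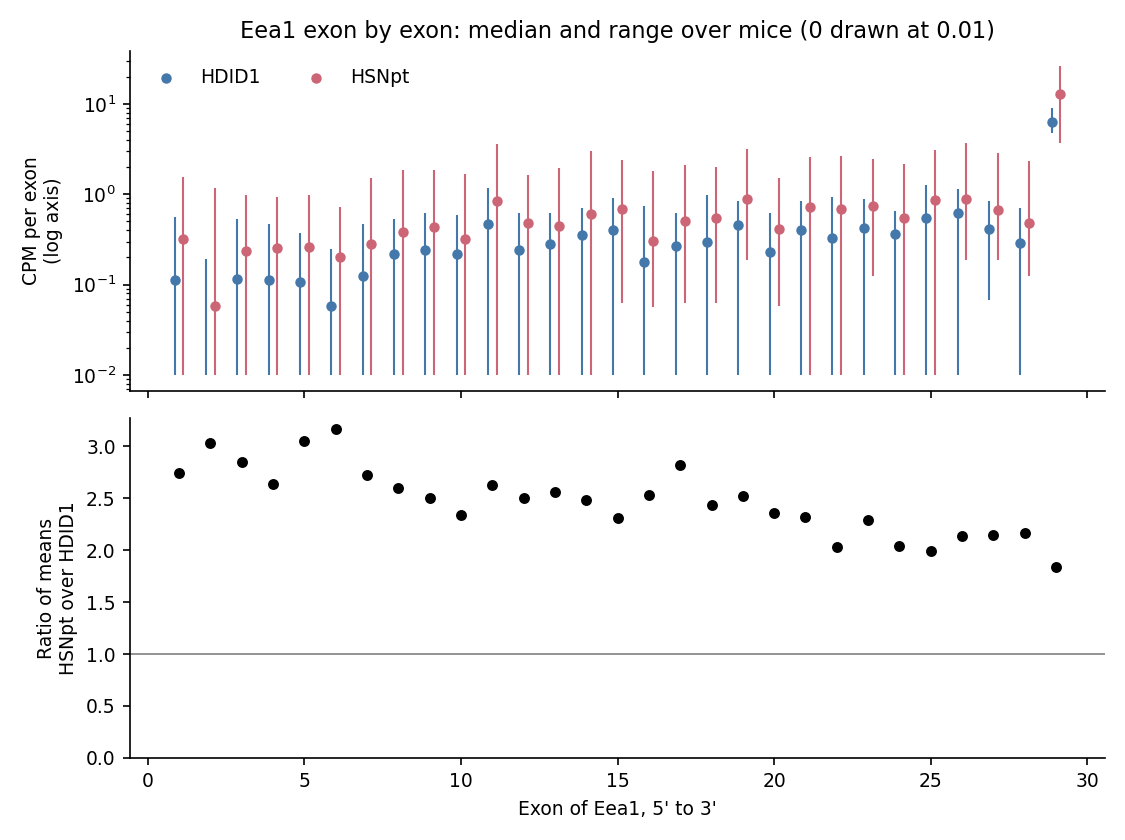
Upper panel, CPM of each Eea1 exon from the 5′ to the 3′ end on a log axis, with the median (point) and range (bar) over 35 HDID1 and 34 HSNpt mice, and values of 0 drawn at 0.01 (the HDID1 median of exon 2 is 0 and has no point). Lower panel, ratio of the HSNpt mean to the HDID1 mean, which lies above 1 in all 29 exons and is lowest at 1.84 in the last.

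On the log2 scale the fitted Eea1 difference, HDID1 minus HSNpt, was -1.11 (SE 0.18), with -1.24 in females and -0.98 in males. The test of whether the sexes differ in it was not passed (edgeR's quasi-likelihood test, difference 0.26, SE 0.35, adjusted p = 0.978). In that test 0% of the 16867 genes passed, 849 had an unadjusted p under 0.05 and DESeq2 called 1. Sex itself was also tested: Eea1 was 0.17 higher in males on the log2 scale (SE 0.17, adjusted p = 0.735), which did not pass, against 0.0949% of all genes called. The p-values here and below are set against the spread between these mice and treat each mouse as independent. In the file headers 22 HDID1 and 29 HSNpt mice share a lab number, of unstated meaning, with another mouse. Gene tests were repeated on counts summed over these numbers as an alternative, and the correlations were not.

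Blood ethanol at the close of the last drinking session, whose unit is not stated, was 0 to 2.81 in HDID1, with a median of 1.498 and 1 reading at 0, and 0 to 1.70 in HSNpt, with a median of 0.256 and 16 readings at 0. Eea1 had a log2 slope of 0.0086 per unit of the reading within HDID1 (SE 0.172, edgeR adjusted p = 0.982) and of -0.15 within HSNpt (SE 0.20, adjusted p = 0.985). Neither passed. The same held for the other 7 genes in both lines, where 0% of all genes passed within HDID1 and 0% within HSNpt, 1850 and 382 genes had an unadjusted p under 0.05, and DESeq2 called none in either line. The HDID1 slope of Appl1 had the smallest unadjusted p of the 8 genes (0.14, SE 0.067, adjusted p = 0.445).

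None of the other 7 genes passed the line test, in which 11.7% of all genes tested did. At an unadjusted p under 0.05 there were 2, Rabep1 and Appl1, where 4714 of all 16867 genes were, so 2 of 7 is near the share of all genes. DESeq2 called none of the 7. In females alone none passed, against 1.57% of all genes (0.771% higher, 0.794% lower), and in males alone none, against 4.23% (2.38% higher, 1.85% lower). None of the 7 passed the interaction or the sex test either; the sex test called 0.0415% of all genes higher and 0.0534% lower in males. Per exon kilobase the order of the HSNpt medians was Rab5c (63.5 CPM per kb), Rab5a (40.5), Rab5b (32.8), Rabep1 (29.6), Appl1 (14.5), Rbsn (11.2), Vps45 (10.4) and Eea1 (3.09). In HDID1 the medians ran from 64.96 CPM per kb for Rab5c to 2.02 for Eea1, but Vps45 (11.6) lay above Rbsn (11.1). Rbsn and Vps45 are neighbours whose ranges overlapped in both lines, whereas the highest Eea1 value in HDID1, 2.67 CPM per kb, lay below the lowest value of each of the other 7.

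The Rab5 GTPases were the most abundant of the 8 per exon length, and none of the 3 passed. Rab5a, on chromosome 17 at 53479234 to 53507671, had 38.9 CPM in the lowest HDID1 mouse, 91.7 in the median and 112 in the highest, and 55.1, 95.4 and 116 CPM in HSNpt. The ranges overlapped over most of their width, and the log2 difference of HDID1 minus HSNpt was -0.087 (SE 0.054, edgeR adjusted p = 0.282). Rab5a shares exonic bases with Pp2d1 on the opposite strand, and whether counting used strand is not given in the sources used here, so its value is uncertain by the reads of that gene.

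Rab5b, on chromosome 10 at 128677193 to 128696268, varied least of the 8 genes, with a coefficient of variation of 6.99% in HDID1 and 6.01% in HSNpt. Its level was 80.1, 103 and 115 CPM in the lowest, median and highest HDID1 mouse and 85.6, 104 and 118 CPM in HSNpt, with a log2 difference of -0.021 (SE 0.025, adjusted p = 0.592, edgeR). Rab5c, on chromosome 11 at 100715009 to 100738215, had 118, 143 and 207 CPM in HDID1 and 121, 139 and 215 CPM in HSNpt. Its log2 difference was 0.015 (SE 0.051, adjusted p = 0.867, edgeR), and the lines covered nearly the same range. Over the whole annotated transcripts used, the longest exact run was 35 bases for Rab5a and Rab5b. It was 22 for Rab5a and Rab5c and 23 for Rab5b and Rab5c. A read longer than these runs could match both genes of a pair only with mismatches, and how such reads were counted is not given.

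Among the effectors and partners, Rabep1 came nearest to the threshold. Rabep1 encodes rabaptin-5, a Rab5 effector that binds Rab5 together with its exchange factor, and lies on chromosome 11 at 70844778 to 70943105. It had 124, 193 and 221 CPM in the lowest, median and highest HDID1 mouse and 136, 203 and 220 CPM in HSNpt. The ranges overlapped, 7 of 35 HDID1 mice exceeded the HSNpt median, and the log2 difference of -0.10 (SE 0.039, edgeR adjusted p = 0.0666) did not pass. Rabep1 shares exonic bases with Nup88 on the opposite strand, so reads of that gene may be counted in it.

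Appl1, whose protein is a Rab5 effector on early endosomes that carry signalling receptors, lies on chromosome 14 at 26918988 to 26971232. Its level was 51.4, 114 and 149 CPM in HDID1 and 69.2, 127 and 152 CPM in HSNpt. The log2 difference was -0.15 (SE 0.071, edgeR adjusted p = 0.156), 9 of 35 HDID1 mice exceeded the HSNpt median, and it was -0.063 without the libraries that stand apart in the last-exon index (adjusted p = 0.473).

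Rbsn, on chromosome 6 at 92186712 to 92214925, encodes rabenosyn-5, a FYVE-domain effector of Rab5 that binds the SNARE regulator VPS45. It had 34.8, 63.7 and 72.2 CPM in HDID1 and 39.3, 64.5 and 73.6 CPM in HSNpt, a log2 difference of -0.058 (SE 0.047, edgeR adjusted p = 0.417). Vps45, on chromosome 3 at 95999832 to 96058466, had 33.8, 46.1 and 105 CPM in HDID1 and 31.1, 41.5 and 77.6 CPM in HSNpt. Of the 35 HDID1 mice 28 exceeded the HSNpt median of Vps45, yet the log2 difference of 0.13 (SE 0.077, edgeR adjusted p = 0.245) did not pass.

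The extreme values of several of these genes sat in libraries whose last-exon index stands apart. With those 9 libraries left out, Rab5a ran from 78.0 to 112 CPM in HDID1 and 86.4 to 104 in HSNpt, Vps45 from 33.8 to 51.3 and 31.1 to 64.7, and Appl1 from 86.7 to 149 and 89.2 to 152. Ranges of the lines overlapped for all 3. Among HDID1 mice Vps45 (r = 0.909, rho = 0.694) and Rab5c (r = 0.753, rho = 0.776) were higher where the index was higher, whereas Rbsn (r = -0.898, rho = -0.809), Rab5a (r = -0.871, rho = -0.523), Appl1 (r = -0.850, rho = -0.780), Rabep1 (r = -0.808, rho = -0.826) and Rab5b (r = -0.513, rho = -0.196) were lower. All 8 genes passed for r in HDID1 and the 7 other genes in HSNpt, and for rho 7 and 4 did, at a permutation p adjusted over 15 relations. The share of all genes that follow the index was not computed, so these counts cannot be read as a trait of these genes. In HDID1 the permutation p was between 1e-05 and 0.00408 for r and between 1e-05 and 0.256 for rho, the largest being those of Rab5b. Without the 2 mice farthest from the median, r among HDID1 mice fell to -0.068 for Rab5b and to -0.464 for Rab5a and was 0.735 for Vps45.

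**Figure D4:**
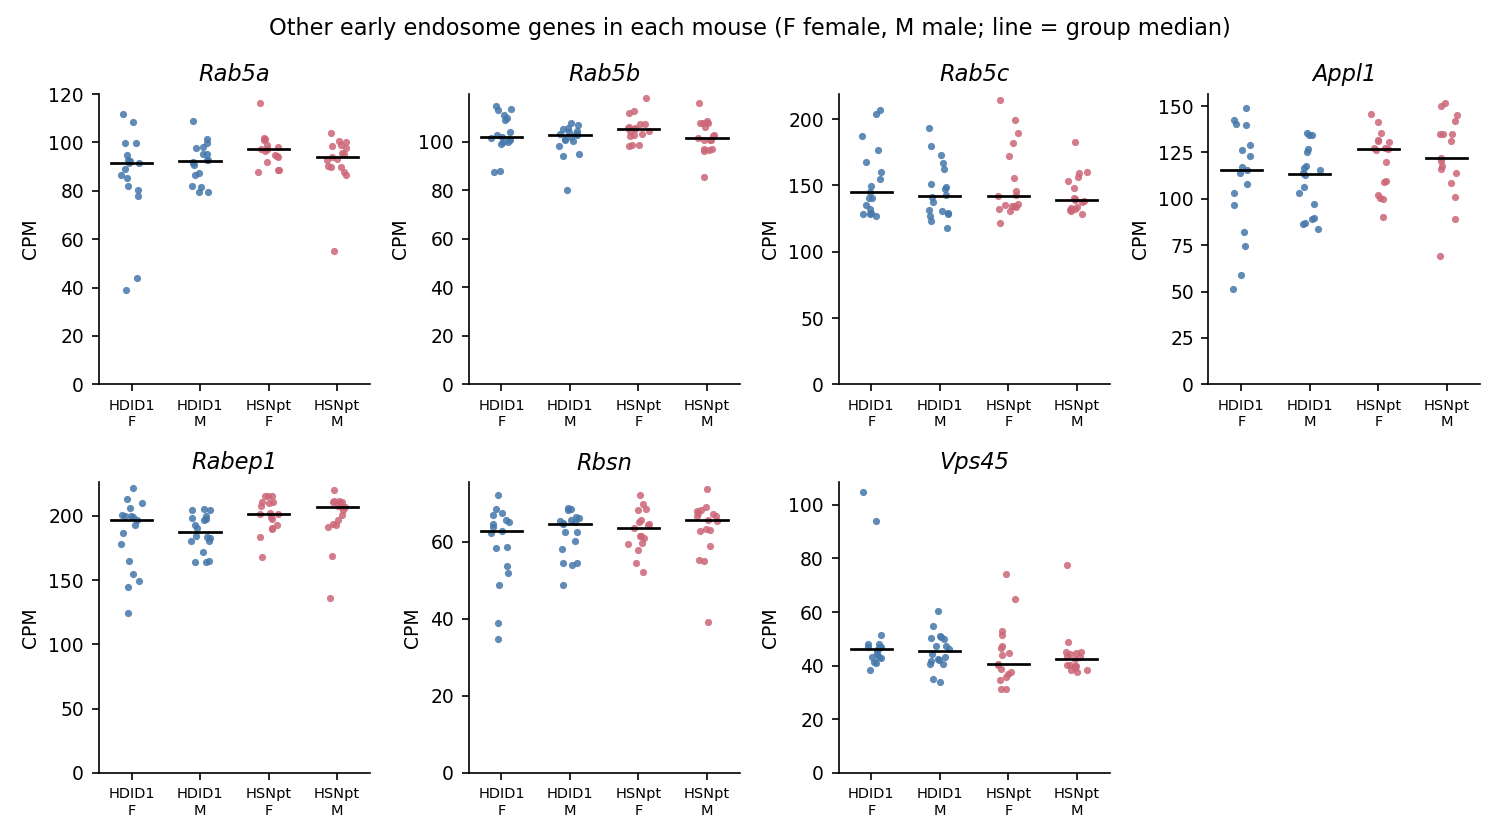
CPM of the other 7 genes in each mouse, by line and sex, with all axes starting at 0; points are mice and black lines group medians. The lines overlap in every panel, and the lowest Rab5a point (38.9 CPM) and the highest Vps45 point (105 CPM) are libraries whose last-exon index stands apart, whereas the lowest Rab5b point (80.1 CPM) is not.

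Exon usage, the share of a gene's reads in each exon, differed by line in 1 of the 7 genes, Appl1 (edgeR diffSpliceDGE, Simes adjusted p = 0.0119), where 4.1% of 12320 genes passed. The exon with the smallest p was the first, chr14:26970401-26971232 on the minus strand, with 832 bases and 578 reads in all mice. It held 0.0480% of the Appl1 reads in the lowest HDID1 mouse, 0.213% in the median and 1.02% in the highest, against 0.107, 0.395 and 1.06% in HSNpt. The ranges overlapped, and the medians rest on 4 and 7.5 reads a library. The call was lost without the 5 libraries that makeup sets apart (adjusted p = 0.0654) and with limma on exon shares (adjusted p = 0.0971). On simulated counts diffSpliceDGE made 45 false calls at an adjusted p under 0.05, and limma on exon shares made 6. The other 6 genes had adjusted p from 0.775 to 1.00. By sex none of the 8 genes passed, at adjusted p of 1.00 for each, where 0.373% of genes did.

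From mouse to mouse within a line, several of the 7 genes moved with Eea1. Since HSNpt mice fall into separate sets, correlations were taken within HDID1 (35 mice), within the 16 HSNpt mice below the last-exon gap and within the 18 above it, on log2 CPM centred on sex. Of 21 relations 16 passed for r at a permutation p adjusted over all 21: 7 of 7 in HDID1, 3 of 7 below the gap and 6 of 7 above it. By rho 5, 3 and 5 passed. Background was wide in these libraries: over 15283 genes the 5th and 95th percentiles of rho with Eea1 were -0.780 and 0.794 in HDID1, -0.632 and 0.691 below the gap and -0.761 and 0.775 above it. Of the 7 genes, 5, 6 and 6 lay inside those limits in the 3 sets.

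Appl1 rose with Eea1 in all 3 sets. In HDID1 its r was 0.876 (rho 0.810, permutation p = 1e-05 for both, adjusted p = 4.2e-05 for r and 0.000105 for rho, r = 0.860 without the 2 farthest mice). Below the gap r was 0.806 (permutation p = 0.00067, adjusted p = 0.00141; rho 0.759, p = 0.00195, adjusted p = 0.00512; r = 0.821 without the 2 farthest). Above it r was 0.855 (permutation p = 5e-05, adjusted p = 0.00015; rho 0.740, p = 0.00136, adjusted p = 0.00408; r = 0.733 without the 2 farthest). The rho of Appl1 lay outside the background limits in HDID1 and below the gap and inside them above it.

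Rab5c moved the other way in the same sets. Its r with Eea1 was -0.884 in HDID1 (rho -0.802, permutation p = 1e-05 for both, adjusted p = 4.2e-05 and 0.000105, r = -0.845 without the 2 farthest mice), -0.650 below the gap (permutation p = 0.0155, adjusted p = 0.0217; rho -0.609, p = 0.0227, adjusted p = 0.0367; r = -0.669 without them) and -0.829 above it (permutation p = 2e-05, adjusted p = 7e-05; rho -0.841, p = 3e-05, adjusted p = 0.000158; r = -0.707 without them). The relation of Vps45 above the gap (r = -0.533, permutation p = 0.0373, adjusted p = 0.0490; rho -0.249, p = 0.317, adjusted p = 0.350) rests on 2 mice, since r was 0.134 without the 2 farthest.

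The Eea1 reads in HDID1, and most of these genes in both lines, also followed the last-exon index, and the relations were taken again with that in view. Without the 9 libraries that stand apart in it, 3 of 7 relations passed in HDID1 (Rab5c, Appl1 and Rbsn), 3 of 7 below the gap and 5 of 7 above it. Residuals, on the index and then on marker scores, were fitted over all 69 mice with no term for line, sex or set. Their slopes thus mix differences between the sets with those within a set. On residuals from the index, 6 of 21 passed, and Appl1 was among them in each set, with r = 0.574 in HDID1 (permutation p = 0.00043), 0.695 below the gap (p = 0.00427) and 0.661 above it (p = 0.00261). On residuals from the scores of 8 marker lists, 4 of 21 passed, and Appl1 passed below the gap alone (r = 0.809). One of these 4 had not passed before, Rab5a below the gap, whose r went from 0.063 (permutation p = 0.84) to 0.798 (permutation p = 0.00048, adjusted p = 0.00536). No background over all genes was taken for these settings, so their counts, and the passing of Appl1, have no share to be read against. What part the index and makeup have in these relations was not tested beyond these values.

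**Figure D5:**
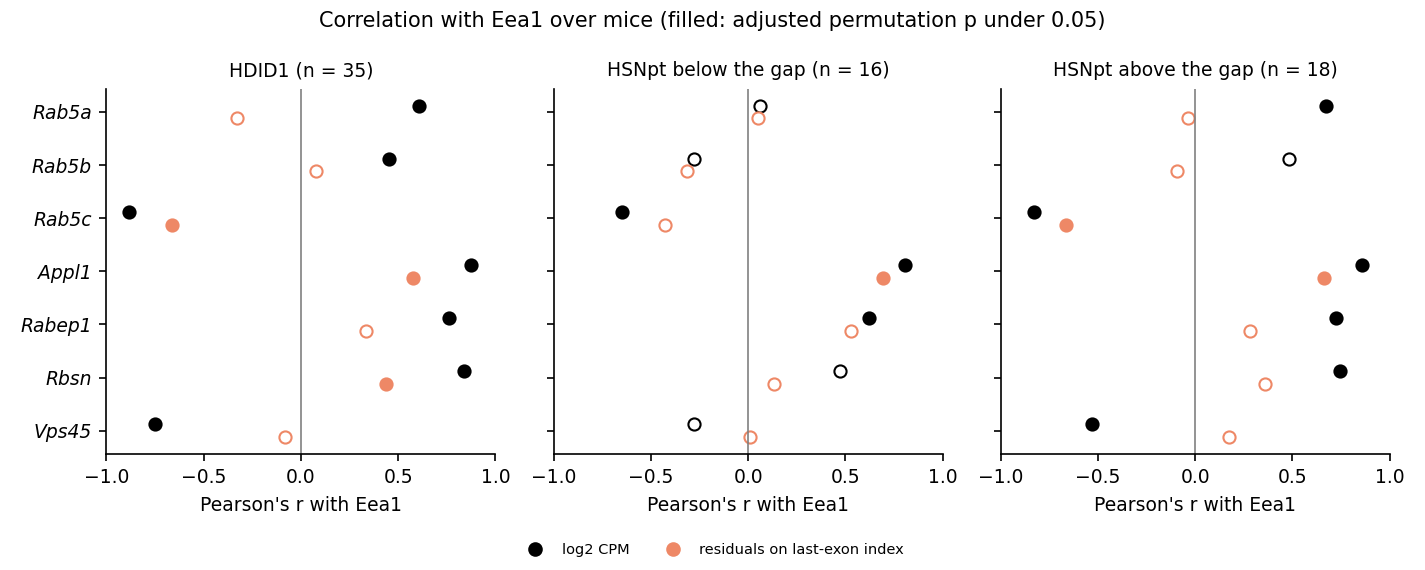
Pearson's r of each of the 7 genes with Eea1 among mice of HDID1, HSNpt below the last-exon gap and HSNpt above it, on log2 CPM (black) and on residuals from the last-exon index (orange, fitted over all 69 mice). Filled points have an adjusted permutation p under 0.05. Appl1 is filled in all 3 panels for both measures, and Rab5a in HDID1 goes from 0.609 to -0.330.

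Around these 8 genes, 117 further genes in 11 lists of the endosomal pathway were looked at, of which 116 were tested. In HDID1 3 rose, against 5.98% of all genes, and 6 fell, against 5.73%. Called genes made up 7.76% of the lists against 11.7% of all genes, and the median log2 difference was -0.0032, against 0.012 over all genes. The endosomal SNAREs, ESCRT-0 and ESCRT-I, retromer and sorting nexins, and late endosome lists had no called member out of 11, 8, 10 and 8. The members of smallest p in them were Snap29 (adjusted p = 0.0788), Vps37a (0.0605, and 0.0472 by DESeq2), Snx1 (0.242) and Lamp1 (0.415), by edgeR. None of the 116 passed the sex test, the interaction or either blood ethanol slope.

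Among regulators of Rab5, 2 of 8 exchange factors and GAPs were called, in opposite directions, where 11.7% of all genes were called. A list of 8 is too small for this count to be read as a trait of it. Rin2, an exchange factor, had 20.6, 26.4 and 36.04 CPM in the lowest, median and highest HDID1 mouse and 18.96, 24.3 and 31.4 in HSNpt, with 28 of the 35 selected mice above the control median and a log2 difference of 0.16 (SE 0.044, edgeR adjusted p = 0.00842). Rin1, an exchange factor of neurons that is activated by Ras, had 17.3, 70.8 and 106 CPM in HDID1 and 37.8, 83.7 and 128 in HSNpt, a log2 difference of -0.38 (SE 0.12, edgeR adjusted p = 0.0320), with 11 of 35 above the HSNpt median. The groups overlapped for both, and both calls were lost without the 5 libraries that makeup sets apart (adjusted p = 0.0644 for Rin2 and 0.0928 for Rin1).

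Of 8 genes grouped here as other Rab5 effectors and endosomal partners 1 was called. It was Gripap1, which encodes an endosomal protein of recycling in dendrites, at a log2 difference of -0.15 (SE 0.047, edgeR adjusted p = 0.0298, 7 of 35 above the HSNpt median). Of 12 kinases, phosphatases and partners of the phosphatidylinositol 3-phosphate pathway, Uvrag, a subunit of the class III lipid kinase complex, was called at -0.18 (SE 0.049, edgeR adjusted p = 0.00863, 5 of 35 above). Vps11, a shared subunit of the CORVET and HOPS tethers, was the 1 called of 9, at 0.091 (SE 0.029, edgeR adjusted p = 0.0280, 30 of 35 above). All 3 had overlapping ranges, with medians in HDID1 and HSNpt of 160 and 176 CPM for Gripap1, 28.5 and 31.9 CPM for Uvrag and 93.7 and 86.3 CPM for Vps11. The called shares of these lists were 12.5, 8.33 and 11.1%, against 11.7% of all genes, so the counts are not read as a trait of the lists.

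Further along the route, Rab11b, a Rab of recycling endosomes, was the 1 called of 14 recycling genes, at -0.13 (SE 0.033, edgeR adjusted p = 0.00610, 5 of 35 above). Picalm, a clathrin adaptor, was the 1 of 18 uptake genes, at -0.13 (SE 0.039, edgeR adjusted p = 0.0214, 2 of 35 above). The called shares of the recycling and uptake lists were 7.14 and 5.56%, against 11.7% of all genes. Among the endocytosed receptors, the sorting receptor Sort1 was called at -0.29 (SE 0.083, edgeR adjusted p = 0.0161, 8 of 35 above). With the 8 marker scores as covariates, of the 8 called genes named here Uvrag kept its call and the other 7 lost theirs, and with counts summed over mice that share a lab number all 8 lost theirs. In that last fit, which has fewer units, the log2 differences ranged from -0.33 (Rin1, SE 0.16) to 0.14 (Rin2, SE 0.056) with no change of sign, and Uvrag had -0.18 with an SE of 0.065 in place of 0.049. The medium spiny neuron and hypothalamic marker values given above move with the line, and their part in these genes was not tested beyond those fits.

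The genes beside Eea1 on chromosome 10 were also looked at. The nearest tested genes before it were Nudt4, 376 kb away, Ube2n, Mrpl42 and Socs2, and after it Btg1, 571 kb away, Dcn, Lum and Epyc. None of the 8 passed the line test, with edgeR adjusted p from 0.0990 (Epyc) to 0.940 (Socs2). Their rho with Eea1 over the 34 HSNpt mice lay between -0.404 (Mrpl42) and 0.136 (Nudt4). Over the 35 HDID1 mice rho lay between -0.738 (Mrpl42) and 0.443 (Epyc). The 5th and 95th percentiles over 15283 genes in HDID1 were -0.780 and 0.794.

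Over all tested genes of at least 1 CPM, those whose levels were most like Eea1 over the 34 HSNpt mice were Dtx3l (rho 0.719), Ipo9 (0.666), Ednra (0.646), Eml6 (0.644) and Gm17023 (0.642). Most unlike it were Hmgn2 (-0.743), Hddc3 (-0.722) and Tspan31 (-0.705). In the 35 HDID1 mice the same genes had rho of 0.227 (Dtx3l), 0.636 (Ipo9), 0.105 (Ednra), 0.683 (Eml6), 0.516 (Gm17023), -0.179 (Hmgn2), -0.597 (Hddc3) and -0.751 (Tspan31). None of these 8 genes passed the line test by edgeR. A rho over 0.5 with Eea1 was found for 450 of 15283 genes in HSNpt and for 3610 in HDID1, all over libraries that share the last-exon index, and these values are descriptions over mice that fall into separate sets of Eea1 level.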

How the data were processed

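Raw counts for every gene and every exon of 69 mice were deposited by the authors. Their tools were STAR, bedtools, edgeR, CASAVA and FastQC on mm10, per the submitters' processing notes. Tool versions, and whether strand was used in counting, were not given in the sources used here. Libraries were poly-A selected and stranded, per the labels' protocols. The 69 libraries form 4 groups by line and sex, with totals of 14077983 to 35257422 counts, where 3 counts, the floor for a count of 0, are worth up to 0.227 CPM (counting error only). Replicate numbers are names in accession order and pair nothing. No libraries were close to identical.

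Genes were filtered with filterByExpr (16867 kept), scaled by TMM and tested with edgeR 4.0.16 (quasi-likelihood F test, R 4.3.3) on all 69 libraries, with Benjamini-Hochberg adjustment at 0.05; exon usage used diffSpliceDGE. Correlations used log2 CPM with a prior count of 2 and 100000 two-sided permutations within sex. Alternatives used DESeq2 1.42.0 and limma 3.58.1. Code was tested on simulated data. For exon usage by line, diffSpliceDGE recovered 26 of 100 genes changed by 0.5 on the log2 scale and 95 of 100 changed by 1. It made 45 false calls there. On the same simulated counts limma on exon shares recovered 32 and 89, with 6 false calls. Named genes were all 8 genes, up to 3 called genes of smallest p per list or else the one of smallest p, 4 neighbours a side, and the 5 most and 3 least like Eea1. The 8 genes, the lists and the tests were chosen with earlier results of these data known. Libraries stand apart beyond 3 scaled median absolute deviations. The values of 1 called gene of the pathway lists are not reported here.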

Additional observations from a re-analysis of the deposited data

How the results depend on the processing

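Under the alternatives run, none of the other 7 genes passed a gene-level test and Eea1 passed none on sex, interaction or blood ethanol, while the Eea1 line difference, given with no test, ran from -0.96 to -1.29 on the log2 scale. Genes called for line numbered 1975 (1008 higher, 967 lower) and fell to 1161 without the libraries that makeup sets apart, 1069 without both kinds that stand apart (419 higher, 650 lower), 637 with 8 marker scores (252 higher, 385 lower) and 572 with counts summed over shared lab numbers, an alternative chosen after seeing the data, as were all those on the last-exon index and on exon shares. DESeq2 gave 1 gene for the interaction in place of 0, and no filter on low counts gave 1 and 5 genes for the blood ethanol slopes in HDID1 and HSNpt in place of 0. Exon usage by line moved from 505 to 805 genes with limma on exon shares, and by sex from 46 to 11, or to 102 without libraries that stand apart in the last-exon index. Relations with Eea1 that passed went from 16 to 4 with marker scores (3 of the 16, and Rab5a below the gap, which had not passed before) and to 6 on residuals from the last-exon index, where Rab5a turned to -0.330 in HDID1 and -0.035 above the gap and Vps45 to 0.18 above it. Both kinds of residuals were fitted over all 69 mice with no term for line, sex or set. The cause of these changes was not tested. Of 232 checks of the other named genes, 200 kept their call, 30 lost it and 2 gained it (Vps37a with DESeq2 and Eml6 with marker scores). No paired analysis was possible because replicate numbers are only names in accession order. Depth limits the single exons most: exon 2 of Eea1 had 104 reads in 69 libraries.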

Other observations

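The file headers carry a lab number for each mouse, whose meaning is not stated, and several mice of a line can share one. In HSNpt 13 numbers were shared by 29 mice, which gave 19 pairs. Eea1 differed by a mean of 0.78 on the log2 scale between mice that share a number and by 1.10 between mice of the same sex that do not (permutation p = 0.0822, 0.438 after adjustment over 16 comparisons). In HDID1 the values were 0.49 and 0.51 (permutation p = 0.845). The 4 HSNpt mice with the highest last-exon level of Eea1, 2 females and 2 males, carried 2 lab numbers between them, and no other HSNpt mouse carried those numbers. This was noticed in the data and not tested, and whether a shared number stands for a shared litter or cage is not given.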
